A study of Mus musculus with 4 samples.

Results

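The miRNAs described here are the arms of the mouse hairpins numbered miR-6896 to miR-6999, chosen by number and listed in all 4 small RNA libraries of the study: 201 arms out of 1809 miRNAs. They comprise 105 5p arms and 96 3p arms, from 105 hairpins. The libraries hold RNA of exosomes (small vesicles released by cells) precipitated with ExoQuick from the plasma of C57BL/6 mice that had received LLC cells (Lewis lung carcinoma, a transplantable tumour line) intravenously and were killed on day 21. The mice were wild type (WT) or deficient in gp49B (KO), an inhibitory receptor of myeloid cells, and mice of both genotypes carried the tumour cells. Each genotype had 2 libraries, pool 1 and pool 2, each from pooled plasma, 3 samples per WT pool and 4 per KO pool, so the number of samples pooled followed genotype. The mRNA of the deleted gene was not analysed here. Values below count unique molecular identifiers (UMIs), short tags that let copies of 1 RNA molecule be counted once, and values of the 4 libraries are given in the order WT pool 1, WT pool 2, KO pool 1 and KO pool 2.

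A microRNA is cut from a hairpin RNA, and each of the strands of its stem, the 5p and the 3p arm, can be loaded into an Argonaute protein, where bases 2 to 8, the seed, pair with target mRNAs. Mirtrons are hairpins whose ends are made by the splicing machinery in place of the nuclease Drosha: the hairpin fills a short intron, beginning at its donor end (GU) and ending at its acceptor end (AG). In tailed mirtrons only one hairpin end lies at a splice site and the rest of the intron is trimmed away.

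By their deposited positions on GRCm38, all 105 hairpins lay in introns of protein-coding genes, 101 host genes on 12 chromosomes, in the GENCODE vM21 annotation. The 3p arm ended within 5 bases of the intron's acceptor end in 100 hairpins, and exactly at it in 81. The 5p arm began exactly at the donor end in 10 hairpins, and in the others it began between 17 and 36210 bases from it. Thus, judged by the ends of the mature arms within 5 bases, 93 hairpins (88.6%) touched the acceptor end alone. By the same measure 7 (6.67%) touched both ends, 3 the donor end alone, and 2 neither. In those 2, miR-6898 and miR-6933, the 3p arm ended 6 and 7 bases before the acceptor end, while the annotated hairpin reached it. The introns with a hairpin at the acceptor end alone had a median length of 479 bases, against 73 for the 7 filled from end to end. Only those 7 have the layout of a plain mirtron, so the label "mirtron-rich" holds in the wider sense that counts hairpins ending at an acceptor. They lie in Myh3 (miR-6923), Dbn1 (miR-6944), Dennd6b (miR-6958), Skiv2l (miR-6970), Lta (miR-6974), Arap3 (miR-6981) and Gfra4 (miR-6973b). For 13 of the 105 hairpins another annotated transcript has an exon over the same bases. Of the 7 that touched both ends, miR-6958, miR-6970, miR-6981 and miR-6973b are among these 13.

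**Figure D1:**
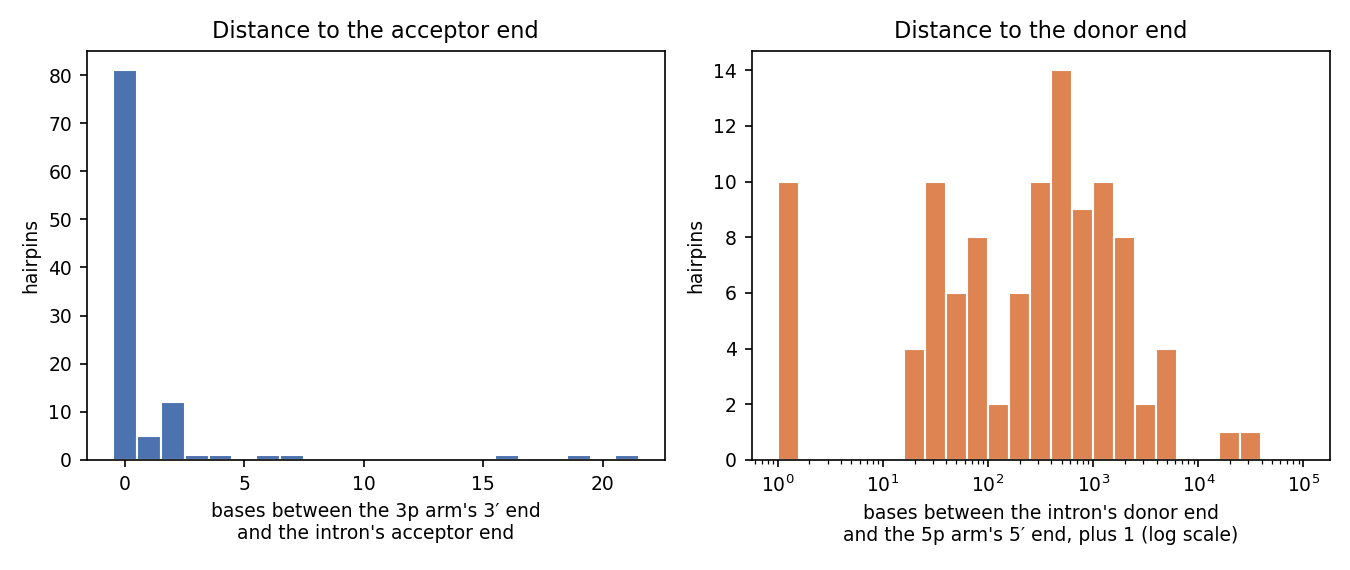
Distance of the 105 hairpins from the ends of their host introns: left, bases between the 3' end of the 3p arm and the acceptor end; right, bases between the donor end and the 5' end of the 5p arm plus 1, on a log scale; bars count hairpins. The 3p arm of 81 hairpins ends at the acceptor itself, while only 10 5p arms begin at the donor.

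Of the hairpins below, shown 5' to 3' with both mature arms in capitals, miR-6944 (chr13:55477681-55477776, minus strand) is the whole of a 96-base intron of Dbn1, the actin-binding protein drebrin. The other 4 are those that the results turn on. The hairpin of miR-6927 (chr11:97677060-97677130, plus strand) begins at the donor of an 88-base intron of Mllt6. Those of miR-6946 (chr14:20690635-20690703, plus strand, in a 683-base intron of Sec24c), miR-6943 (chr13:55453106-55453171, plus strand, in an 87-base intron of Grk6) and miR-6963 (chr15:103350455-103350525, minus strand, in a 119-base intron of Itga5) end at the acceptor. Sequences are from RefSeq (GRCm38.p6).
miR-6944: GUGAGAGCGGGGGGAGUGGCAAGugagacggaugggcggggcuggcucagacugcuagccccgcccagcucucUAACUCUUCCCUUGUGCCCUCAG
miR-6927: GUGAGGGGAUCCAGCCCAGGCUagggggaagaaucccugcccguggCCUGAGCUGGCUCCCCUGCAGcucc
miR-6946: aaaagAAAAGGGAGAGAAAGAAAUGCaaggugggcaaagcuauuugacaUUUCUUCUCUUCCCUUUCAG
miR-6943: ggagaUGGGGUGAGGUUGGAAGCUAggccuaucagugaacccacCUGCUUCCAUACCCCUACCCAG
miR-6963: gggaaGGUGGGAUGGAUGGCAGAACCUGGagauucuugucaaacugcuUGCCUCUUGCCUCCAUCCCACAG

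A RefSeq mature sequence was found for 165 of the 201 arms, 86 5p and 79 3p. Of the 79 3p arms, 59 (74.7%) ended in AG, the last bases of an intron, against 112 of the other 561 in the data, and 51 (64.6%) ended in CAG against 13.9% of the others. Their bases were 71.5% pyrimidine on average, against 56.5% in the other 3p arms, as the stretch upstream of a splice acceptor is rich in C and U. The 5p arms were rich in G, at 43.5% of bases against 31.7%, and 33 of 86 (38.4%) held the run GGGG, against 14.9% of other 5p arms. Only 8 of the 86 (9.30%) began with GU, against 4.90%. The next numbers in the nomenclature, miR-7000 to miR-7094, which are among the other arms here, had like values: 78.2% of their 3p arms ended in AG and 73.2% of 3p bases were pyrimidine, and their 5p arms had 44.7% G and held GGGG in 37.0%. Without both series, 10.6% of the other 3p arms ended in AG, with 53.8% pyrimidine, and 10.6% of the other 5p arms held GGGG, with 29.1% G.

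The 165 sequences held 161 different seeds. Seeds were compared among the 1560 miRNAs of the data with a RefSeq sequence, and 129 of the arms had a seed that no other of these has. There were 4 seeds shared by a pair of arms each, which are shown here, with the seed in capitals, because a shared seed means a shared pairing rule for targets.
miR-6916-5p: cAGGAGGAuggagaugaguca
miR-6942-5p: uAGGAGGAggggaacauuugc
miR-6904-5p: uCCUGGGGuuagaguugagugg
miR-6914-5p: uCCUGGGGuggugguggccacaga
miR-6927-3p: cCUGAGCUggcuccccugcag
miR-6945-3p: uCUGAGCUcugcccuucccau
miR-6922-5p: uGUGGGAGgggacuguagagagg
miR-6993-5p: aGUGGGAGaaacgggugucuguc
In all, 36 arms shared their seed, these 8 among them, and 30 of the 36 shared it with a miRNA outside the set. The seed of miR-6922-5p and miR-6993-5p is also that of miR-7008-5p and miR-705. No run of 16 or more bases was shared with another of the 1560 miRNAs with a sequence. The seed of miR-6921-5p, for example, is that of miR-423-5p, and the seed of miR-6932-3p is that of miR-26a-2-3p and miR-26b-3p.

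These arms were scarce in every library. The 4 libraries held 1577749, 3170219, 1709669 and 3630249 UMIs of miRNAs, with 5.29 and 5.70 reads per UMI in WT and KO pool 1 against 1.69 and 2.11 in pool 2. In pool 1 no count above 0 was below 10, while pool 2 had counts down to 1 (WT) and 3 (KO), so an arm at 0 in pool 1 is given as listed at 0. Summed over the 201 arms, the share of miRNA UMIs was 0.673% for WT and 0.560% for KO in pool 1, with exact (Clopper-Pearson) 95% intervals of 0.660 to 0.686 and 0.548 to 0.571. In pool 2 it was 0.216% for WT (0.211 to 0.222) and 0.267% for KO (0.262 to 0.272). These intervals, like those of ratios below, cover counting error only. The share was thus higher in both pool 1 libraries than in both pool 2 libraries, and the genotypes overlapped. This was not particular to these arms: the next numbers, miR-7000 to miR-7094, held 0.535%, 0.175%, 0.466% and 0.207%. With total counts as scaling, edgeR's quasi-likelihood test called 1386 of 1797 miRNAs lower in pool 2 and 8 higher (adjusted p under 0.05). Single arms had a median of 37, 25, 34 and 30 UMIs, below the 47, 31, 43 and 42 of all miRNAs, and only 22, 9, 18 and 19 of the 201 reached 100 UMIs. Ranked by mean share among the 1809 miRNAs, the arms had a median rank of 1151, and the first of them stood at rank 132.

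**Figure D2:**
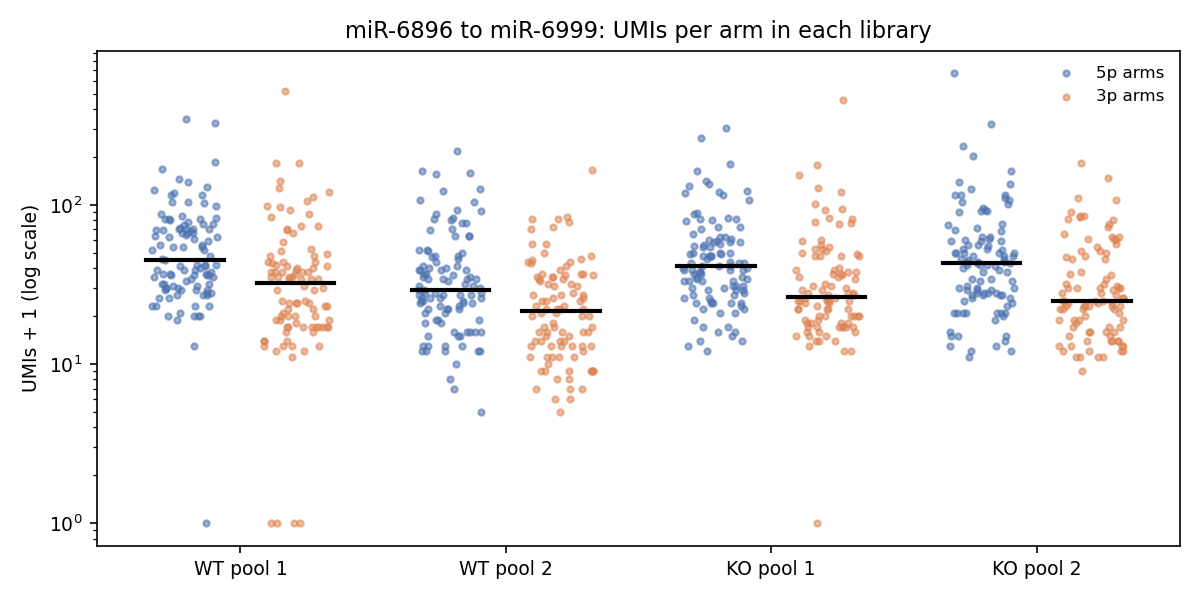
UMIs plus 1 of each of the 201 arms in each library, on a log axis, with 5p arms in blue and 3p arms in orange; horizontal bars are medians, and points at 1 are arms listed at 0. In each library the 5p median (44, 28, 40 and 42 UMIs) lies above the 3p median (31.5, 20.5, 25.5 and 24 UMIs).

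The order of the arms was much the same in libraries with the same pool number: Spearman's rho over the 201 arms was 0.869 between WT and KO pool 1 and 0.846 between WT and KO pool 2, against 0.719 to 0.753 between libraries of different pool numbers. Over all miRNAs of the data it was higher but had the same pattern, at 0.906 and 0.904 against 0.805 to 0.819. Depth and abundance are shared by all points of such a comparison. The 10 arms with the highest mean share are described next, and 6 of them with their sequences, the seed in capitals.
miR-6946-3p: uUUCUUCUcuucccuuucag
miR-6941-5p: cUGGGGGAcugacggguagcu
miR-6927-5p: gUGAGGGGauccagcccaggcu
miR-6956-5p: uGAGUGGGugggacuggccu
miR-6964-5p: uUGGGGUGugagacuggaaac
miR-6926-3p: uCACCAUCccugucuccauag
The first by this mean, in which the higher shares of pool 1 weigh more, was miR-6946-3p, the C and U rich 3' end of an intron of Sec24c, a coat protein of vesicles leaving the endoplasmic reticulum, with 521, 165, 453 and 183 UMIs. It had the most UMIs of the 201 arms in both pool 1 libraries, while miR-6964-5p did in WT pool 2 (217) and miR-6956-5p in KO pool 2 (670). The arm miR-6941-5p, from an intron of the Notch ligand gene Jag2, had 344, 122, 305 and 161 UMIs. Both were higher as a share of miRNA UMIs in both pool 1 libraries.

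Of these 10 arms, 2 begin at an intron's donor end. The arm miR-6927-5p (Mllt6) had 324, 157, 262 and 233 UMIs, and miR-6936-5p, from an intron of the deacetylase gene Sirt7, had 168, 92, 179 and 138. The 6 arms of the 3 hairpins at the donor end alone had medians of 87.5, 52.5, 62 and 94 UMIs, against 36, 25, 32.5 and 29.5 for the 178 arms of hairpins at the acceptor end alone, a description over few arms.

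The remaining 6 of the 10 lay in introns of Troap, Triobp, C2cd2, Rce1, Itga5 and Sgsm2. Counts of miR-6960-5p (Troap) were 185, 103, 161 and 124, those of miR-6986-3p (in Rce1, a protease that trims lipid-modified proteins such as Ras) were 181, 80, 178 and 83, and those of miR-6963-5p (in Itga5, a subunit of the fibronectin receptor) were 129, 155, 135 and 201. In 3 arms 1 pool or 1 library stood out: miR-6926-3p (Sgsm2) had 182 and 153 UMIs in pool 1 against 26 and 35 in pool 2, miR-6964-5p (C2cd2) had 71 and 119 against 217 and 322, and miR-6956-5p (Triobp) had 53, 76 and 55 in the first 3 libraries against 670 in KO pool 2. At the other end, 5 arms were listed at 0 in WT pool 1: miR-6966-3p, miR-6968-3p, miR-6945-5p, miR-6922-3p and miR-6955-3p. They had between 8 and 15 UMIs in the other libraries. A further 9 3p arms of these hairpins were listed in pool 1 alone, with at most 28 UMIs, and were not compared.

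The arms of a hairpin are made from the same transcript, and their ratio within a library does not depend on the scaling between libraries. Both arms were listed in 96 of the 105 hairpins, and the 5p arm was the more abundant more often. Fitted over the 670 hairpins of the data with both arms (edgeR's quasi-likelihood test, Benjamini-Hochberg adjusted p under 0.05), the 5p arm was higher in 43 of the 96, against 40.1% of all 670 hairpins, and the 3p arm was higher in 12 of the 96, against 23.0% of all. The median log2 of 5p over 3p was 0.59 in the 96 hairpins and 0.39 in all 670. Some hairpins have an arm listed at 0 in a pool 1 library. With only hairpins above 0 throughout, a choice made after the data were seen, the 5p arm was higher in 39 of 90 and the 3p arm in 11. Of all 648 such hairpins the numbers were 261 and 153, and the median log2 was 0.51 in the 90 and 0.37 in all. The 5p arm was ahead in all 4 libraries in 47 of the 96 hairpins (49.0%, against 43.1% of all 670), the 3p arm in 15 (15.6%, against 25.5%), and in 34 the order differed between libraries. Ratios were moderate: a fitted difference of 4-fold or more (2 on the log2 scale) was seen in 18 hairpins (18.8%), against 27.5% of all. These p-values measure the spread between the 4 pools of plasma and not between single mice. In all, the 5p arms held 59.6%, 62.9%, 58.9% and 65.1% of the UMIs of the 201 arms. Those are 105 5p arms and 96 3p arms, as 9 3p arms were listed in pool 1 alone and left out.

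**Figure D3:**
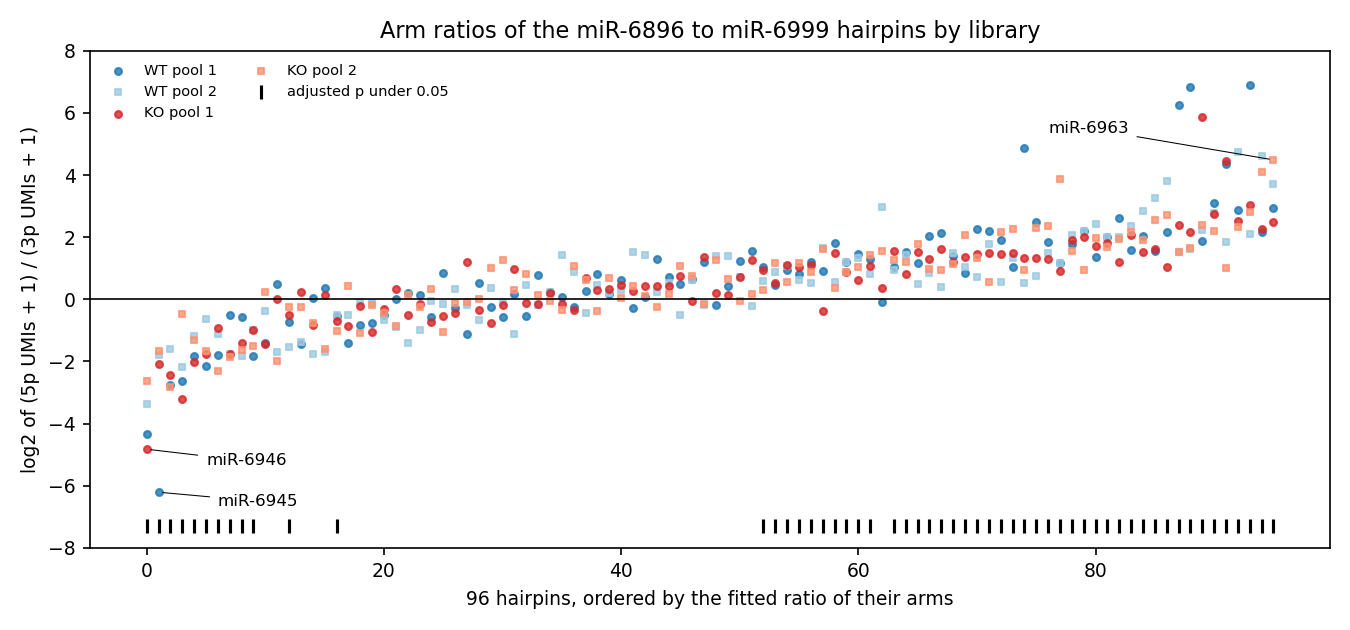
Log2 of (5p UMIs + 1) over (3p UMIs + 1) of the 96 hairpins in each library, ordered by the fitted ratio; ticks at the bottom mark hairpins with an adjusted p under 0.05. Ticks cover 43 hairpins on the 5p side and 12 on the 3p side, and the points above 5 and the point marked miR-6945 belong to arms listed at 0 in a pool 1 library.

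Among hairpins with the 5p arm higher, miR-6963 (Itga5) led. Its 5p and 3p counts were 129 and 16, 155 and 11, 135 and 23, and 201 and 8 in the 4 libraries. The 5p arm held between 85.4% and 96.2% in every library, and the fitted log2 ratio was 3.43 (SE 0.38, edgeR adjusted p = 0.00011, higher in 4 of 4 libraries). For miR-6964 the 5p share was 82.6%, 96.4%, 83.2% and 94.7%, with a log2 ratio of 3.32 (SE 0.48). Here pool 2 was above pool 1 in both genotypes. The 3p arm of miR-6955, from Gga1, an adaptor of Golgi trafficking, was listed at 0 in WT pool 1. Its log2 ratio of 3.32 was 2.73 without that library (edgeR adjusted p = 3.12e-05).

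The 5p share of miR-6905, from an intron of the Mediator subunit gene Med23, was 88.5%, 97.0%, 86.0% and 83.9%. In miR-6941 (Jag2) the 5p share depended on the pool: it was 95.6% and 95.9% in WT and KO pool 1, and 78.7% and 67.1% in WT and KO pool 2. The 3p arm had 16 and 13 UMIs in pool 1 and 33 and 79 in pool 2, while the 5p arm had 344 and 305 in pool 1 and 122 and 161 in pool 2.

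The hairpin of miR-6946 had the opposite bias. Its 5p and 3p counts were 25 and 521, 15 and 165, 15 and 453, and 29 and 183, so the 3p arm, which is the last 20 bases of the intron, was 14.3-fold higher in the fit (log2 ratio -3.84, SE 0.42, edgeR adjusted p = 0.000101). It was ahead in 4 of 4 libraries. The 5p share was 12.6%, 24.5%, 15.2% and 11.7% in miR-6986 (Rce1), and 21.6%, 30.0%, 19.2% and 28.2% in miR-6912, which lies in an intron annotated to Gm49322. In miR-6901 (Sned1) it was 13.6%, 16.7%, 9.1% and 41.7%, with KO pool 2 above the rest. For miR-6945, in Pdlim7, the 5p arm was listed at 0 in WT pool 1 and held 18.3% to 23.0% elsewhere. Its log2 ratio was -2.57, and -1.93 without that library, and on read counts its adjusted p was 0.0571 (edgeR). By position, the 5p arm was higher in 37 and the 3p arm in 11 of 85 hairpins at the acceptor end alone, in 4 and 0 of 6 hairpins that filled their intron, and in 2 and 1 of 3 at the donor end alone.

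The comparison of the genotypes asks which exosomal miRNAs differ when gp49B is missing from tumour-bearing mice. No arm of these hairpins differed between KO and WT by edgeR's quasi-likelihood test at an adjusted p under 0.05, and 198 of the 201 passed the filter on low counts. Of all 1797 miRNAs tested 0.0% passed. At an unadjusted p under 0.05 there were 5 of the 198, 2 higher and 3 lower in KO, against 0.835% and 0.946% of all (1.78% in either direction). At an unadjusted p under 0.05 DESeq2 gave 2 (1.56% of all miRNAs) and limma-voom 3 (1.5% of all), with 0 past the adjusted threshold. The median log2 difference, KO minus WT, was -0.03 in these arms and -0.03 in all miRNAs. On scaled counts (CPM of UMIs with TMM scaling), both KO libraries lay above both WT libraries in 17 arms, against 9.52% of all miRNAs, and below in 26, against 11.6% of all. Within pool 1 the median log2 of KO over WT was -0.08, and within pool 2 it was 0.01. In plasma RNA, fewer cells releasing a miRNA and less of it per cell cannot be told apart.

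Other RNA in the preparations also differed between libraries. The 5 red blood cell miRNAs (miR-451a among them) made up 46.0%, 43.2%, 37.4% and 46.3% of UMIs, the 3 hepatocyte miRNAs (miR-122-5p among them) 11.4%, 27.3%, 7.48% and 20.3%, the 3 skeletal muscle miRNAs (miR-1a-3p among them) 0.396%, 0.424%, 3.68% and 0.686%, and the 3 myeloid miRNAs (miR-223-3p among them) 2.18%, 1.14%, 4.58% and 1.13%. For the lymphocyte miRNA miR-150-5p the shares were 0.655%, 0.417%, 0.759% and 0.424%, and for the 2 miRNAs of platelets and endothelium 0.587%, 0.339%, 0.922% and 0.339%. None of these 17 miRNAs was at 0 in any library. The part of these differences in the values of the intronic arms was not tested.

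**Figure D4:**
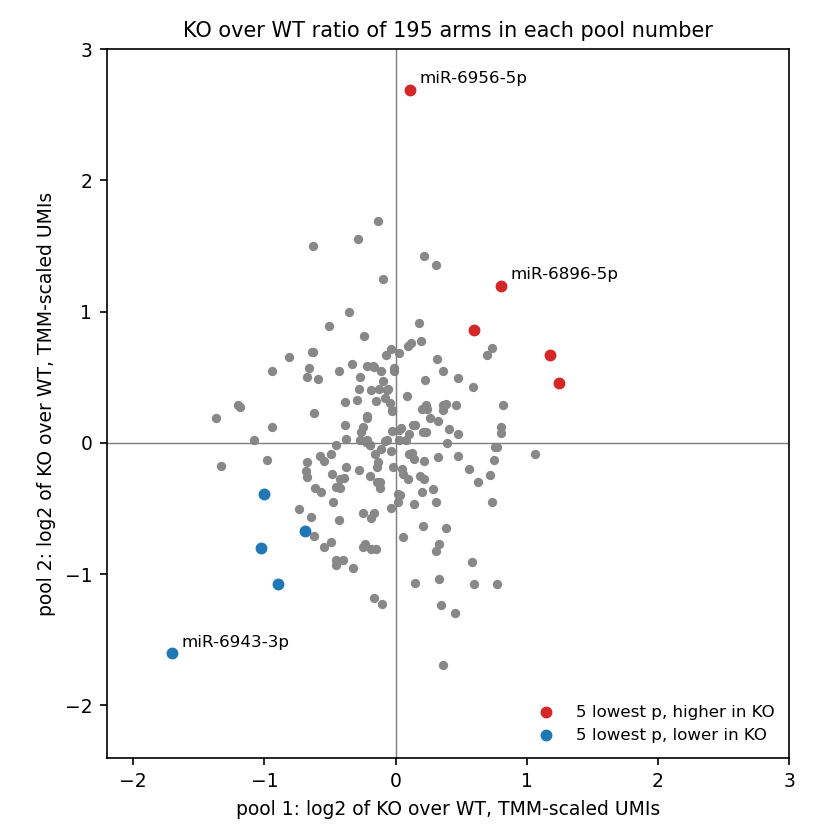
Log2 of KO over WT in pool 1 (x axis) and pool 2 (y axis) for the 195 arms with UMIs in all 4 libraries, on TMM-scaled UMIs; colours mark the 5 arms of lowest p in each direction. Most arms lie around 0 on both axes; miR-6943-3p is the one arm below -1 on both.

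The arm with the lowest p between genotypes was miR-6943-3p, the last 22 bases (chr13:55453150-55453171) of an intron of Grk6, a kinase that desensitises G protein-coupled receptors. It had 105 and 69 UMIs in WT against 31 and 31 in KO, or a CPM of 39.2 and 37.9 against 12.1 and 12.5 (mean 38.6 ± 0.927 in WT and 12.3 ± 0.297 in KO, SD, n = 2 each, edgeR unadjusted p = 0.00239). Both KO libraries were below both WT libraries, at 0.308 of WT in pool 1 (95% interval 0.199 to 0.463) and 0.329 in pool 2 (0.208 to 0.510). The fitted log2 difference was -1.65 (SE 0.42), and the adjusted p, 1.00 in edgeR, did not pass. It was the only 1 of the arms at least 2-fold lower in KO in both pools, against 0.506% of all miRNAs with UMIs in every library. None was at least 2-fold higher in both, against 0.112%.

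For the 5p arm of the same hairpin no difference between genotypes was detectable. Its counts were 38 and 26 for WT libraries and 37 and 26 for KO libraries, so KO was 1.01 times WT in pool 1 (0.627 to 1.64) and 0.733 times WT in pool 2 (0.409 to 1.31). The 5p share of miR-6943 in the 4 libraries was therefore 26.6%, 27.4%, 54.4% and 45.6%. It was higher in both KO libraries than in both WT libraries, with a gap of more than 15 percentage points that 1 of the 96 hairpins and 5 of all 670 showed. The cutoff of 15 points was not part of the planned comparisons. In the test of the arm ratio between genotypes the log2 difference, KO minus WT, was 1.44 (SE 0.56), with an unadjusted p of 0.0336 and an adjusted p of 0.999 in edgeR over 670 hairpins. No hairpin passed that test (0.0% of 670), and miR-6943 was the only 1 of the 96 at an unadjusted p under 0.05, against 0.746% of all. The 5p share lay above both WT libraries in both KO libraries in 14 of the 96, against 11.5% of all, and below in 17, against 11.6%. The next by p were miR-6954, with a 5p share of 64.6%, 47.1%, 40.3% and 32.1%, and miR-6902, with 31.1%, 46.7%, 70.4% and 48.2%.

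The sequences of both arms of miR-6943, and of 2 further arms with an unadjusted p under 0.05 between genotypes, are these, with the seed in capitals.
miR-6943-3p: cUGCUUCCauaccccuacccag
miR-6943-5p: uGGGGUGAgguuggaagcua
miR-6896-5p: uUUGUAGGcgacgagaacccgu
miR-6897-3p: cGGUCUGUguucuucccccag
Among arms higher in KO, miR-6956-5p, whose sequence stands with the abundant arms above, had the lowest unadjusted p, 0.0348 in edgeR, with a log2 difference of 2.25 (SE 0.93). Its scaled values were 19.8 and 41.8 in WT against 21.4 and 270 in KO, so the groups overlapped and the difference lay in KO pool 2 alone. Within pool 1 KO was 1.08 times WT (0.728 to 1.61), and within pool 2 it was 6.46 times (5.09 to 8.30). Without KO pool 2 the estimate was -0.51. The 3p arm of that hairpin had 23, 33, 29 and 45 UMIs, with ratios of 1.31 and 0.999.

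The arm miR-6896-5p, from Dst, which encodes the cytoskeletal linker dystonin, had 28 and 24 UMIs in WT against 47 and 75 in KO (scaled 10.5 and 13.2 against 18.3 and 30.2, unadjusted p = 0.0362 in edgeR). Both KO libraries were above both WT libraries, by 1.75 times in pool 1 (1.07 to 2.90) and 2.29 times in pool 2 (1.43 to 3.79). The next in order had an unadjusted p of 0.139 or more. They were miR-6996-3p of the Notch1 gene (12 and 6 UMIs in WT, 26 and 13 in KO), miR-6904-3p of Parp1, a DNA damage sensor (11 and 8, 25 and 15), and miR-6994-5p of Patl1, an mRNA decapping factor (55 and 21, 80 and 52). In these 3 arms too both scaled KO values lay above both WT values, as in 9.52% of all miRNAs. All arms named here as higher in KO were picked by lowest p in this same comparison.

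After miR-6943-3p, the arms lower in KO were miR-6954-5p and miR-6897-3p. For miR-6954-5p, in Mroh1, there were 53 and 32 UMIs in WT against 25 and 25 in KO (log2 difference -0.92, unadjusted p = 0.0459 in edgeR), while its 3p arm had 29 and 36 against 37 and 53. For miR-6897-3p, of Uggt1, the folding sensor of glycoproteins, there were 33 and 34 against 17 and 22 (log2 difference -0.98, unadjusted p = 0.0497 in edgeR). Neither overlapped between genotypes on the scaled counts, and in 11.6% of all miRNAs both KO libraries likewise lay below both WT libraries. The arms of this paragraph were also picked by lowest p in that comparison. Counts of miR-6978-3p, from an intron of the complement gene C3, were 37 and 21 against 22 and 18, and those of miR-6925-5p, from the kinesin gene Kif1c, were 98 and 25 against 47 and 26. On the scaled counts the genotypes did not overlap for miR-6978-3p (unadjusted p = 0.134 in edgeR), and they overlapped for miR-6925-5p, whose estimate of -0.82 became 0.09 without WT pool 1.

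**Figure D5:**
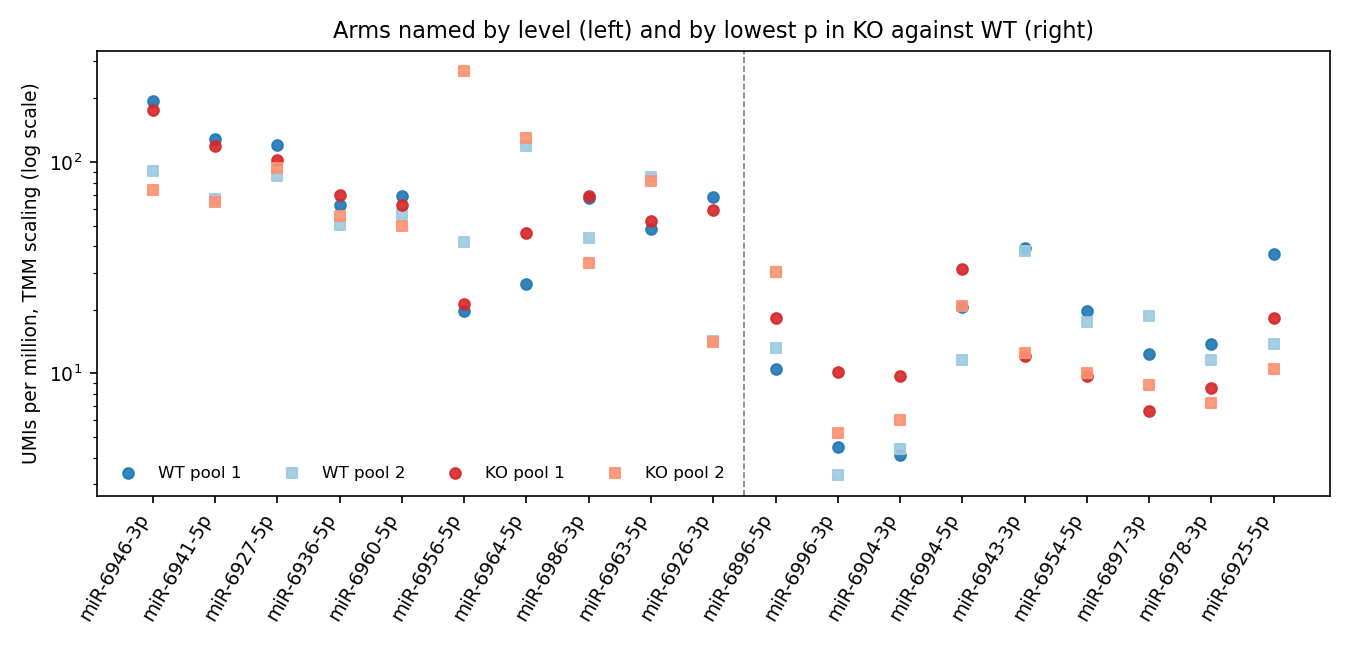
CPM of UMIs with TMM scaling, on a log axis, in each library for the 10 arms of highest mean share (left of the dashed line) and the further arms of lowest p in KO against WT (right); colours give genotype and shapes give pool number. For miR-6943-3p both WT points lie near 38.6 and both KO points near 12.3, while miR-6956-5p stands at 270 in KO pool 2 alone.

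More arms moved with the pool number than with genotype. Pool 2 against pool 1 is a comparison of labels and not of conditions, and the sources used here do not say what the number stands for. In edgeR, 11 of the 198 arms were higher in pool 2 at an adjusted p under 0.05, against 7.29% of all miRNAs, and 7 were lower, against 4.45%. With genotype as a term in the fit 6 of the 198 passed, against 3.17% of all, and with DESeq2 10, against 8.01%. The split depended on scaling: with total counts 150 arms were lower, against 77.1% of all, since that scaling moved the median log2 difference of all miRNAs from -0.04 to -1.37 and that of these arms from -0.09 to -1.43.

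The arm miR-6926-3p stood at a CPM of 68.0 and 59.6 in pool 1 (WT and KO) and at 14.3 and 14.1 in pool 2, and so was lower in pool 2 (log2 difference -2.16, SE 0.25, edgeR adjusted p = 0.00357). Also lower were miR-6985-3p of the phosphatase gene Ssh3, with 34.4 and 35.8 against 10.4 and 8.86, and miR-6901-3p, with 52.3 and 46.7 against 19.2 and 8.46. None of the 3 overlapped between pools, but they were picked by lowest p in that same comparison. The share of all miRNAs without such overlap was not counted. Higher in pool 2 were miR-6941-3p, with 5.98 and 5.06 in pool 1 against 18.1 and 31.8, miR-6964-5p, with 26.5 and 46.3 against 119 and 130, and miR-6937-3p of Adi1, an enzyme of methionine salvage, with 34 and 36 UMIs against 81 and 80. These 3 arms did not pass with total counts, and miR-6941-3p passed neither with DESeq2 nor with genotype as a term. The arm miR-6956-5p, described above for KO pool 2, was also higher in pool 2 (log2 difference 2.93, SE 0.69, edgeR adjusted p = 0.0271). The hepatocyte share given above was also higher in both pool 2 libraries, and its part in these values was not tested.

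For comparison, the 6 arms of the mirtrons miR-702, miR-877 and miR-1224, named before this series of numbers, were all listed and none differed between KO and WT, although the estimate was above 0 in each. Their counts were as low, from 7 UMIs in miR-1224-3p in WT pool 2 to 234 in miR-1224-5p in KO pool 2. Of the 83 hairpins of miR-7000 to miR-7094 with both arms, the 5p arm was ahead in all 4 libraries in 48 and the 3p arm in 4, against 47 and 15 of the 96 described here, a difference that was not tested.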

How the data were processed

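Small RNA libraries (QIAseq miRNA kit) were sequenced on a NextSeq 500, per the labels. The analysis used the UMI counts of each mature miRNA as deposited, not normalized, and the deposited read counts as an alternative. The authors also deposited log2 values, normalized by a method the sources do not state, which were not used. The submitters' processing notes name FastQC 0.11.9 and GRCm38 (mm10); aligner and counter: not given in the sources used here. Members and lists were chosen with earlier results of these data known.

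Genotypes and pool numbers were compared with edgeR 4.0.16 in R 4.3.3 (a quasi-likelihood test after filterByExpr and TMM, two-sided, with Benjamini-Hochberg adjustment over 1797 miRNAs). Arms were compared over 670 hairpins with a mean of 20 or more UMIs, with library as a covariate. Ratios within a pool number have exact conditional binomial 95% intervals. The scripts were tested on simulated data. Alternatives used DESeq2 1.42.0, limma 3.58.1, other scalings, filters and libraries left out. Arms were named by rule: the 10 with the highest mean share of miRNA UMIs, 5 per direction by lowest p between genotypes, 3 per direction between pools, 5 hairpins per arm bias, 3 by arm ratio between genotypes, and the 5 least abundant. The rule also listed both arms of miR-6943 by name, the other arm of each named arm, and arms sharing a seed within the set. Of all annotated introns over a hairpin, the one with the nearest ends was used. Arms given at more than 1 position were placed at the first. Python 3.11.15, pandas 2.3.3 and SciPy 1.17.1 were used.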

Additional observations from a re-analysis of the deposited data

How the results depend on the processing

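With 2 libraries per genotype and counts mostly under 100 UMIs, small differences are beyond reach and larger ones can be missed. In the simulated data 200 miRNAs, drawn from all 1797 and not from these arms alone, were changed between genotypes. The edgeR test found 1% of them at a 2-fold change, 52% at 4-fold and 93.5% at 8-fold. The simulation gave every miRNA the same dispersion and let the libraries vary independently, which real libraries of the same pool number did not. Its percentages are therefore not those of these arms. No arm passed between KO and WT under any alternative. At an unadjusted p under 0.05 there were 5 arms. In other settings there were 0 with total counts (0.278% of all miRNAs), 3 with limma-voom (1.5% of all), 2 with DESeq2 (1.56% of all) and 5 to 10 with 1 library left out (10 without WT replicate 2, 8 without KO replicate 1). All miRNAs then gave between 2.21% and 3.21%. The median log2 difference was -0.10 with 20 or more UMIs in every library and between -0.056 and 0.12 with 1 library left out (0.12 without WT replicate 1). With 1 library left out the estimate lay between -0.51 (without KO replicate 2) and 3.16 for miR-6956-5p, between -1.34 and 0.090 (without WT replicate 1) for miR-6925-5p, and between -0.43 and 0.015 (without KO replicate 2) for miR-6943-5p. Over single arms and hairpins, 370 alternative values kept their direction and side of the threshold, these 3 changed sign, 6 no longer passed and 1 passed anew.

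Libraries with the same pool number deviated together (r = 0.527 over all miRNAs, 0.482 over these arms), but 2 pairs show only a shared number. With the pool number as a replicate block 9 arms had an unadjusted p under 0.05, close to the 4.34% of all miRNAs. For the arm ratio between genotypes the block gave 3 calls among the 96 hairpins (2.24% of all 670), and leaving out 1 library gave 0 to 4 (4 without WT replicate 2, where 1.34% of all were called). Each of these hairpins (miR-6899, miR-6922, miR-6945, miR-6955, miR-6966) has an arm listed at 0 in a pool 1 library, and among the 90 hairpins above 0 throughout, chosen after the data were seen, there were 0 calls with or without the block.

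For pool 2 against pool 1 there were 18 calls, against 151 with total counts (77.6% of all miRNAs), 6 with genotype as a term (3.17%) and 10 with DESeq2 (8.01%), and the median was -1.43 with total counts. With a mean of 100 or more UMIs, 19 of 28 hairpins were called for arm bias, against 80.8% of all 313, and the median log2 was 0.99, against 0.40; the smaller number of hairpins tested is part of that construction. With read counts the share of all arms was 0.700% (WT pool 1), 0.224% (WT pool 2) and 0.282% (KO pool 2). Without miR-6946-3p, the first by mean share, it was 0.640%, 0.211% and 0.533% in the first 3 libraries, and the 5p share was 62.7%, 64.4%, 61.8% and 66.3%. The cause of these shifts was not tested.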
